A study of Homo sapiens with 8 samples.

Results

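A set of 10 genes of the Golgi apparatus that shape protein-linked sugars was followed across all 8 arrays of the series. They were 4 alpha-mannosidases (MAN1A1, MAN1A2, MAN2A1 and MAN2A2) and 6 polypeptide GalNAc transferases (GALNT1, GALNT2, GALNT3, GALNT7, GALNT11 and GALNT12), out of 19775 genes named on the array. The genes were selected by symbol while measured differences between the groups of these arrays were already known, and which difference weighed in the choice is not recorded. All comparisons are therefore treated as used in the choice, and the members' values are given as a description. Every probe set whose only gene symbol was a member was taken, 29 in all. A probe set is a group of short oligonucleotides on the array that reads 1 transcript region.

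The groups were SUP-B8 with GSK126 at 0.5 uM, SUP-B8 with the vehicle DMSO, NALM-6 with GSK126 at 0.5 uM and NALM-6 with DMSO, each kept for 72 hours and each with 2 arrays that the labels call biological replicates. SUP-B8 and NALM-6 are established human lines that the study describes as acute lymphoblastic leukaemia. GSK126 inhibits EZH2, the methyltransferase of Polycomb repressive complex PRC2, and no EZH2 genotype is given in the sample labels for either line. Each array averages a whole culture, so fewer expressing cells and less RNA per cell cannot be told apart. The deposited values are log2 expression levels, with array medians between 7.18 and 7.24.

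The labelled lines were set against cell type markers. The 5 markers of the B lineage with a probe set of their own (CD79A, CD79B, PAX5, EBF1 and CD22) averaged between 11.04 and 13.31 in every group. The early B-cell markers DNTT, VPREB1, CD24 and RAG1 averaged 10.33 or more in the SUP-B8 groups, and between 5.39 and 6.91, below the array medians, in the arrays labelled NALM-6. NALM-6 is known as a B-precursor leukaemia line, so these markers go against its label. Whether the line labels are wrong or exchanged was not tested, and every value given for a line below is that of the arrays so labelled. The 4 myeloid markers lay below the array medians in each group's mean. The mature B-cell markers (MS4A1, CCR7 and CD86) were above them for 1 of 3 in the SUP-B8 groups and 3 of 3 in the NALM-6 groups. Also above them in every group were 3 of 5 T-cell markers, up to 8.27, and 2 of 2 erythroid ones (HBB and ALAS2), beside 1 or 2 of 4 epithelial ones, up to 7.94, so a level near 8 is not by itself shown to be expression.

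Asparagine-linked glycans leave the endoplasmic reticulum with an excess of mannose. In the Golgi, MAN1A1 and MAN1A2 (mannosidases IA and IB) trim these mannoses, and after MGAT1 has added an N-acetylglucosamine, MAN2A1 and MAN2A2 (mannosidases II and IIx) remove the last ones that block the building of complex chains. The GalNAc transferases start the other large class, mucin-type O-glycans, by placing N-acetylgalactosamine on serine or threonine, and in lymphocytes such O-glycans are carried by mucin-like surface proteins.

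Of the 10 genes, MAN1A1 and GALNT12 rose with GSK126 under both line labels, and MAN2A1 fell with it under the NALM-6 label. The 250 bases before the RefSeq start of these 3 genes are shown. On the probe set that represents each gene, they were the members called higher in both lines and the one called lower in NALM-6, by the threshold given below. The letters run 5′ to 3′ on the gene's strand in build GRCh38.p14, and capitals mark each CG dinucleotide, the base pair step that is enriched in CpG islands. The MAN1A1 window lies on the minus strand at chr6:119349762-119350011, GALNT12 on the plus strand at chr9:98807420-98807669 and MAN2A1 on the plus strand at chr5:109689677-109689926.
MAN1A1: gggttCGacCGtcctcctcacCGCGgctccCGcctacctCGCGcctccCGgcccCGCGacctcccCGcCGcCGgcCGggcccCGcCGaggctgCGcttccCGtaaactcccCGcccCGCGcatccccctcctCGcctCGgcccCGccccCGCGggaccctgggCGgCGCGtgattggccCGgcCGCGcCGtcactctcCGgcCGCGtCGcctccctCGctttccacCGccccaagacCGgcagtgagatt
GALNT12: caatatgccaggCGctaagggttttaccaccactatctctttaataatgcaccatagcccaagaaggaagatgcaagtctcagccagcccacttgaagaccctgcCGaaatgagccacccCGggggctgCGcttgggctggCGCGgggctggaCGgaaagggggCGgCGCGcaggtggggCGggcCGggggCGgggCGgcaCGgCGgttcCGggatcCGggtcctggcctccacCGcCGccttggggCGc
MAN2A1: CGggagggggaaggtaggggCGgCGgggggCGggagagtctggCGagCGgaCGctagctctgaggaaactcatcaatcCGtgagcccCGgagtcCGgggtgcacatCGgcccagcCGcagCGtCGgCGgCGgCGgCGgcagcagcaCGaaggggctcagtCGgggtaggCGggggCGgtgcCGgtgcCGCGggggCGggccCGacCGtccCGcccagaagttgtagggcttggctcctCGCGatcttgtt

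The MAN1A1 window held 40 CG dinucleotides, more than 96.7% of the 14533 RefSeq starts of tested protein-coding genes, whose median was 19. The GALNT12 window held 21, more than 53.5% of those starts, and the MAN2A1 window held 31, more than 83.5%. RefSeq windows were matched for 9 of the 10 genes, with 14 starts in all, whose windows held between 1 CG (GALNT11) and 52 (a start of GALNT1). The GALNT2 window held 42, more than that of MAN1A1, and GALNT2 differed by 0.04 in SUP-B8 and -0.09 in NALM-6 on its brightest probe set. Across its 4 probe sets the NALM-6 differences ran from -0.56 to -0.09. Any relation between the CG count and the difference with GSK126 was not tested. The GC-box letters GGGCGG, searched on both strands, were present in all 3 printed windows and in 61.6% of the starts. The E-box letters CACGTG and the TATA-box letters TATAAA (both strands) were in none of the 3, and in 8.17% and 6.22% of the starts.

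Each gene was represented by its probe set with the highest mean. Testing used limma, a linear model with variances shared across genes, and was limited to genes whose probe set exceeded the array median in 2 or more of the 8 arrays. This left 13161 genes, 9 of the members among them. GALNT11, which in other studies acts on NOTCH1, was the exception. Its values were 5.61 and 5.86 in SUP-B8 with GSK126, 5.95 and 5.76 in SUP-B8 with DMSO, 5.80 and 6.01 in NALM-6 with GSK126 and 5.75 and 5.67 in NALM-6 with DMSO, all below the array medians. Below, a gene is called when its p-value, adjusted by the Benjamini-Hochberg method over all genes tested, was under 0.05. For a member this marks its place in that fit and is no independent evidence. Differences are log2 values ± SE from the model, and means are ± SD with n = 2.

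**Figure D1:**
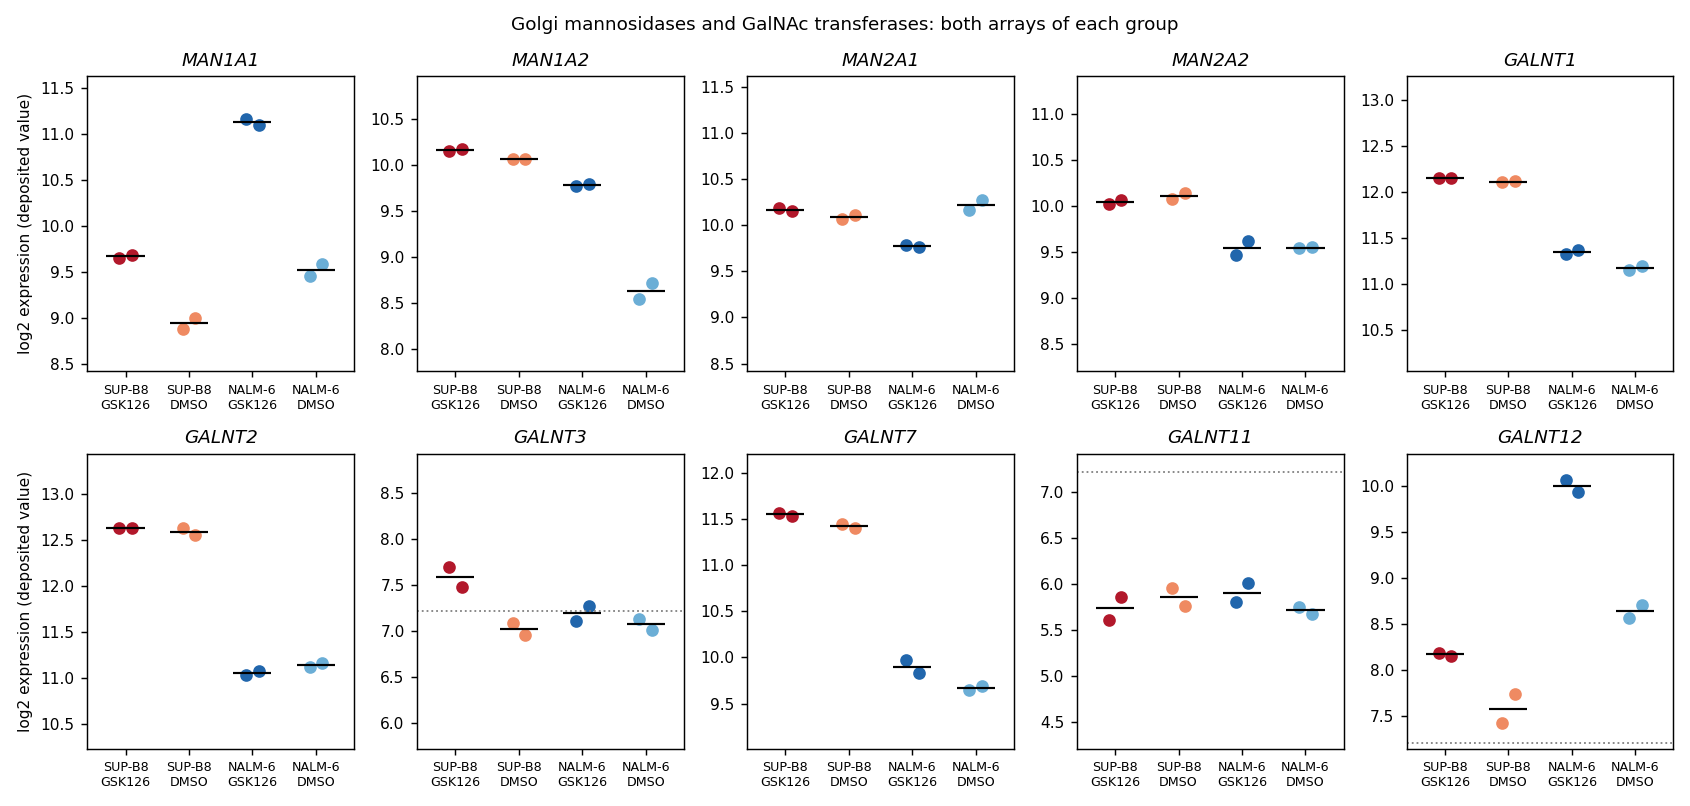
Deposited log2 expression of the 10 genes by group, for the probe set that represents each gene: points are the 2 arrays, bars their mean, and the dotted line, where in range, the middle of the array medians. Every panel spans the same number of log2 units on its own level. MAN1A1 and GALNT12 lie higher with GSK126 in both lines, MAN1A2 in NALM-6, and MAN2A1 lies lower with GSK126 in NALM-6.

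MAN1A1 had values of 9.66 and 9.69 in SUP-B8 with GSK126, against 8.89 and 9.00 with DMSO. In NALM-6 it had 11.16 and 11.10 with GSK126, against 9.46 and 9.59 with DMSO. All GSK126 arrays thus lay above the DMSO arrays of their line, and the NALM-6 arrays with GSK126 were the highest of the 8. The gene rose by 0.73 ± 0.06 in SUP-B8, a 1.66-fold change, and by 1.60 ± 0.06 in NALM-6, a 3.04-fold change. Its other probe set, of lower signal, differed by 0.66 and 1.51. By size of increase MAN1A1 ranked at place 19 of 13161 genes in SUP-B8 and at place 55 in NALM-6. The call held in each omission of an array, with differences between 0.67 and 0.79 in SUP-B8 and between 1.54 and 1.67 in NALM-6.

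MAN1A2, the close relative of MAN1A1, had values of 10.15 and 10.17 in SUP-B8 with GSK126 and 10.06 and 10.07 with DMSO, and the difference of 0.10 ± 0.06 was not called. In NALM-6 its values were 9.77 and 9.79 with GSK126, against 8.55 and 8.72 with DMSO. The rise there was 1.15 ± 0.06, or 2.22-fold, and NALM-6 with DMSO was the lowest of the 4 groups. The size rests on the brightest probe set. Across the 6 probe sets the NALM-6 differences ran from 0.01 to 1.15, the second largest being 0.48, and the mean of all of them was 0.32, still called.

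MAN2A1, mannosidase II, moved the other way in NALM-6. It had values of 9.79 and 9.76 there with GSK126, against 10.17 and 10.27 with DMSO. The arrays did not overlap, and the fall was -0.44 ± 0.05. All 3 probe sets gave a negative difference, between -0.72 and -0.36. In SUP-B8 the values were 10.19 and 10.15 with GSK126 and 10.07 and 10.11 with DMSO, a difference of 0.08 ± 0.05 that was not called. MAN2A2, mannosidase IIx, was called in neither line. Its values were 10.02 and 10.06 in SUP-B8 with GSK126, 10.08 and 10.14 in SUP-B8 with DMSO, 9.47 and 9.62 in NALM-6 with GSK126 and 9.54 and 9.55 in NALM-6 with DMSO. The differences were -0.07 ± 0.06 in SUP-B8 and 0.00 ± 0.06 in NALM-6, where the arrays of the treatments overlapped.

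GALNT12, a GalNAc transferase best known from digestive tissue, was the member transferase with the largest difference between GSK126 and DMSO in NALM-6. It had values of 8.19 and 8.16 in SUP-B8 with GSK126, against 7.43 and 7.74 with DMSO. In NALM-6 its values were 10.07 and 9.94 with GSK126, against 8.57 and 8.71 with DMSO. As for MAN1A1, the treatments did not overlap in either line and NALM-6 with GSK126 was the highest group. The gene rose by 1.36 ± 0.10 in NALM-6, or 2.57-fold, and by 0.59 ± 0.10 in SUP-B8, or 1.50-fold. The second probe set differed by 1.17 in NALM-6 and by 0.27 in SUP-B8. The SUP-B8 levels lie within the range of the T-cell markers given above. The SUP-B8 call ended without DMSO replicate 1 (0.44), GSK126 replicate 1 (0.57) or GSK126 replicate 2 (0.60) of that line, and when only its 4 arrays were fitted.

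GALNT3, known for glycosylating the phosphate hormone FGF23, had values of 7.69 and 7.47 in SUP-B8 with GSK126, against 7.08 and 6.95 with DMSO. The DMSO values lay below their array medians, so the rise, 0.56 ± 0.09 in the model, is shown only as at least 0.38. Its second probe set differed by 0.03, with all levels dimmer. In NALM-6 the values were 7.11 and 7.27 with GSK126 and 7.13 and 7.01 with DMSO, which overlap, and the gene was not called there. The SUP-B8 call ended when either DMSO array of that line was left out (0.63 without replicate 1, 0.50 without replicate 2), or its GSK126 replicate 1 (0.46). Like GALNT12 in SUP-B8, GALNT3 stayed within the range of the T-cell markers.

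On their brightest probe sets, the other transferases changed little with GSK126. GALNT1 and GALNT2 are broadly expressed enzymes that start O-glycans on unmodified protein. GALNT1 had 12.15 and 12.15 in SUP-B8 with GSK126 and 12.11 and 12.12 with DMSO, with a difference of 0.03 ± 0.05. In NALM-6 it had 11.33 and 11.37 with GSK126 and 11.16 and 11.20 with DMSO, a rise of 0.17 ± 0.05, and all 5 probe sets gave positive differences, from 0.11 to 0.37. That call ended without NALM-6 DMSO replicate 1 (0.15), GSK126 replicate 1 (0.19) or GSK126 replicate 2 (0.15), and with each array centred on its median (0.13). GALNT2 had 12.63 and 12.63 in SUP-B8 with GSK126 and 12.63 and 12.55 with DMSO, and 11.04 and 11.08 in NALM-6 with GSK126 against 11.12 and 11.17 with DMSO. Its difference of -0.09 ± 0.05 in NALM-6 was not called. All 4 of its probe sets had a negative difference there, from -0.56 to -0.09, and their mean, -0.25, was called.

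GALNT7 prefers peptides that already carry a GalNAc. It had 11.57 and 11.54 in SUP-B8 with GSK126 and 11.45 and 11.41 with DMSO, a difference of 0.13 ± 0.06 that was not called. In NALM-6 it had 9.97 and 9.83 with GSK126, against 9.65 and 9.69 with DMSO, a rise of 0.22 ± 0.06. As the mean of its probe sets that rise was 0.14. It lost its call without NALM-6 DMSO replicate 1 (0.20) or GSK126 replicate 1 (0.16), and with each array centred on its median (0.19).

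**Figure D2:**
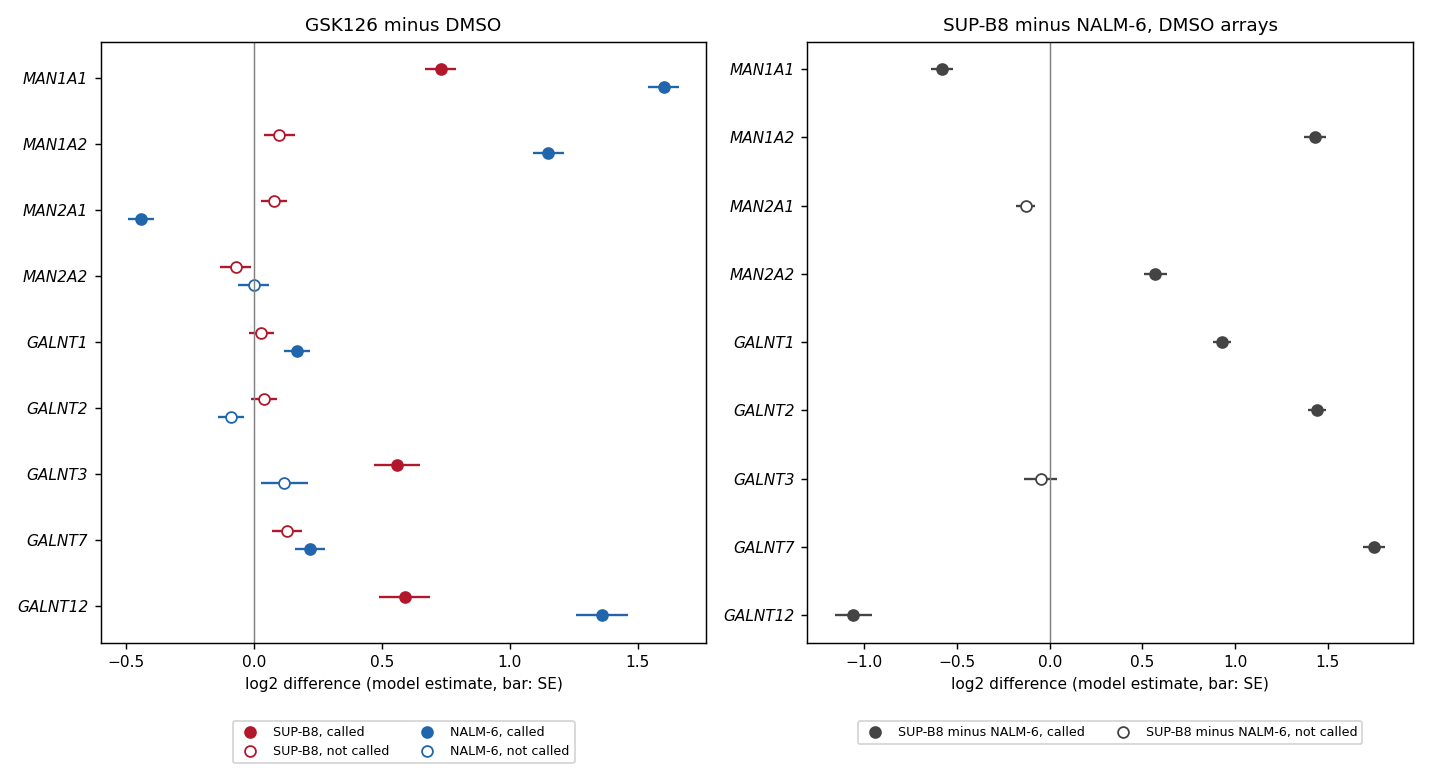
Model estimates with SE for the 9 tested members: the left panel plots GSK126 minus DMSO in each line, and the right panel the DMSO arrays of SUP-B8 minus those of NALM-6, in log2 units. Filled points were called over all genes tested, and open points were not; GALNT3 is drawn at its fitted value although both DMSO groups lay below the array medians. MAN1A1 and GALNT12 are called upward in both lines, at 0.73 and 0.59 in SUP-B8 and at 1.60 and 1.36 in NALM-6.

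Counted over the 9 tested members, 3 were called higher and 0 lower in SUP-B8, where 2.25% of all genes were called. In NALM-6, 5 were called higher and 1 lower, where 39.3% of all genes were called. The medians were 0.10 and 0.17 in SUP-B8 and NALM-6, beside -0.02 and 0.02 over all genes tested. Because the members were chosen with such values known, nothing is read from these shares. The SUP-B8 count was 1, with MAN1A1 left, without DMSO replicate 1 or GSK126 replicate 1 of that line.

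**Figure D3:**
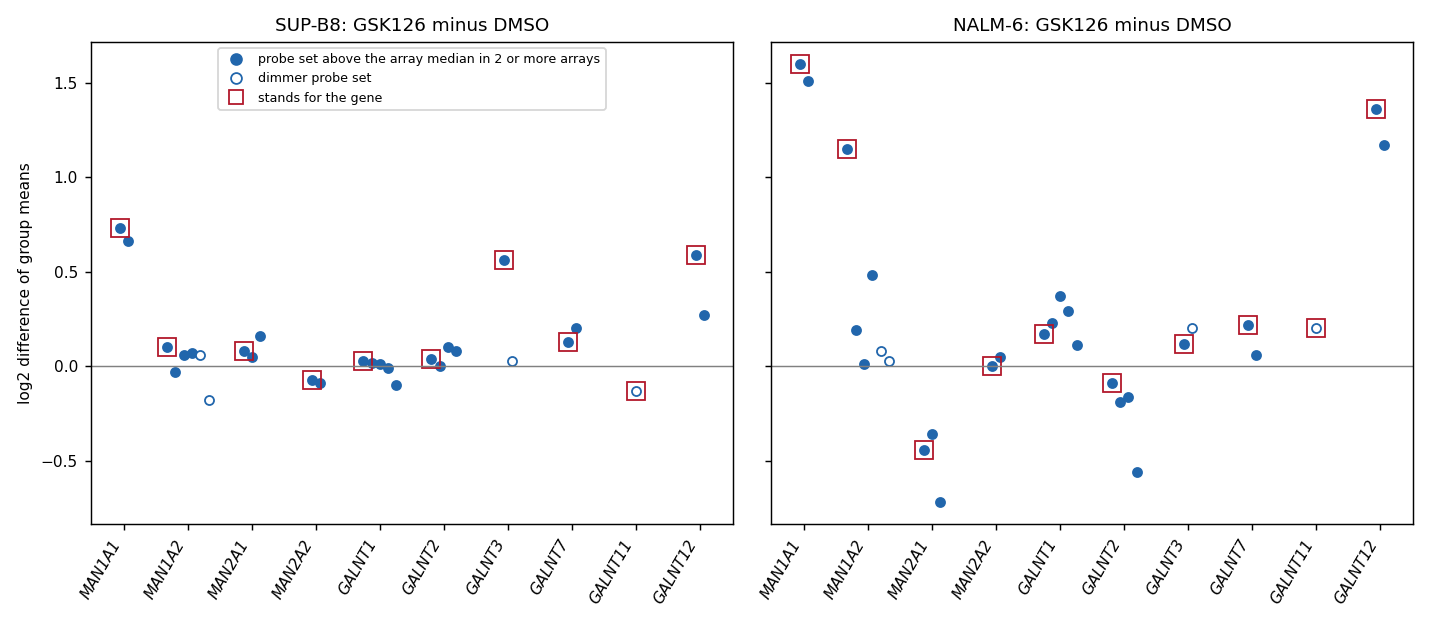
GSK126 minus DMSO as a log2 difference of group means for all 29 probe sets of the 10 genes, in SUP-B8 on the left and NALM-6 on the right. Open points are probe sets above the array median in fewer than 2 arrays, and squares mark the probe set that represents the gene. Both probe sets of MAN1A1 and of GALNT12 lie above 0 in both lines, whereas for MAN1A2 the NALM-6 differences spread from 0.01 to 1.15.

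The responses of the lines were set against each other by the interaction term, coded as the SUP-B8 response minus the NALM-6 response. Of the 9 members 5 were called, 2 positive and 3 negative, where 25.4% of all genes were called. The term was -0.87 ± 0.09 for MAN1A1, -1.05 ± 0.09 for MAN1A2 and -0.77 ± 0.14 for GALNT12. MAN1A1 and GALNT12 thus rose less in SUP-B8 than in NALM-6, while MAN1A2 was called higher in NALM-6 only. The term was 0.52 ± 0.08 for MAN2A1, which fell in NALM-6. For GALNT3 the fitted term of 0.44 ± 0.13 rests on DMSO levels below the array medians in both lines, so no size is shown, and the call ended in 5 of 8 omissions of an array. For MAN1A2 the mean of its probe sets gave -0.31, also called. Over all genes 1440 were called positive and 1903 negative, against 1562 and 1379 with each array centred on its median.

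Without the drug, the lines differed in 7 of the 9 members, where 68.3% of all genes were called. Of these, 5 were higher and 2 lower in SUP-B8. GALNT7 stood furthest apart, with means of 11.43 ± 0.03 in SUP-B8 and 9.67 ± 0.03 in NALM-6, a difference of 1.75 ± 0.06 or 3.37-fold. Its second probe set differed by 1.92. GALNT2 was higher in SUP-B8 by 1.44 ± 0.05, with its 4 probe sets between 0.95 and 2.01. GALNT1 was higher there by 0.93 ± 0.05, with its 5 probe sets between -0.04 and 0.99.

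Among the mannosidases MAN1A2 was higher in SUP-B8 by 1.43 ± 0.06 (0.64 as the mean of its probe sets) and MAN2A2 by 0.57 ± 0.06 (0.32 as that mean). The members that were lower in SUP-B8 under DMSO were MAN1A1 (-0.58 ± 0.06) and GALNT12 (-1.06 ± 0.10), which both rose with GSK126 in either line. MAN2A1 (-0.13 ± 0.05) was not called, although with the mean of its probe sets (-0.15), renewed quantile normalization (-0.11), an intensity-trended robust prior (-0.13) or omission of NALM-6 DMSO replicate 1 (-0.18) it was. GALNT3 lay below the array medians in both DMSO groups, so no size is given.

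For most members the order of the lines was alike with and without GSK126. On their brightest probe sets GALNT1, GALNT2, GALNT7 and MAN2A2 had their SUP-B8 arrays above all NALM-6 arrays with either treatment. The second probe set of MAN2A2 overlapped between the lines, with 7.81 and 7.77 in SUP-B8 and 7.80 and 7.90 in NALM-6 with GSK126. It overlapped with DMSO as well. The dimmest probe set of GALNT1 had SUP-B8 (7.07 and 6.94) below NALM-6 (7.21 and 7.29) with GSK126. On its brightest probe set MAN1A2 kept that order with a smaller gap. Its means were 10.16 ± 0.01 in SUP-B8 and 9.78 ± 0.01 in NALM-6 with GSK126, beside 10.06 ± 0.01 in SUP-B8 and 8.63 ± 0.12 in NALM-6 with DMSO. MAN1A1 and GALNT12 had the higher level in NALM-6 with either treatment. For MAN2A1 the order turned on its brightest probe set only, at 10.17 ± 0.02 in SUP-B8 and 9.78 ± 0.02 in NALM-6 with GSK126. With DMSO it had 10.09 ± 0.03 in SUP-B8 and 10.22 ± 0.07 in NALM-6, a difference that was not called. Its dimmest probe set had SUP-B8 above NALM-6 with DMSO as well (8.77 and 8.70). The remaining probe set had near equal means with GSK126 (9.49 in SUP-B8 and 9.47 in NALM-6). GALNT3 had SUP-B8 above NALM-6 with GSK126 (7.58 ± 0.15 and 7.19 ± 0.11), while under DMSO both lines lay below the array medians and have no order. The MAN1A1 means in SUP-B8 with GSK126 (9.68 ± 0.02) and in NALM-6 with DMSO (9.53 ± 0.10) were neighbours, and this pair was not tested.

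The families to which the members belong were listed in full by nomenclature, to show the genes that were not picked. Of 14 further GALNT genes, 6 were tested, GALNT4 had no probe set with a single symbol and the other 7 were too dim. In NALM-6, 3 of the 6 rose and 0 fell, where 20.8% of all genes were called higher and 18.5% lower. GALNT10, which like GALNT7 prefers glycosylated peptides, rose by 0.63 ± 0.06 (limma adjusted p = 9.81e-05), GALNT18 by 0.58 ± 0.11 (limma adjusted p = 0.00344) and GALNT6 by 0.40 ± 0.08 (limma adjusted p = 0.00569). For GALNT18 the mean of its probe sets gave 0.23. The NALM-6 levels of GALNT10 (7.19 with DMSO and 7.82 with GSK126) and of GALNT18 (7.62 and 8.20) lie within the range of the T-cell markers given above. In SUP-B8, 1 of the 6 rose and 0 fell, where 1.91% of all genes were called higher and 0.334% lower. This was GALNT10, by 0.41 ± 0.06 (limma adjusted p = 0.0175), a call that ended on leaving out any 1 array of that line. GALNT6 differed by 0.37 ± 0.08 in SUP-B8 without being called in the main setting (limma adjusted p = 0.0716), and it was called when arrays were centred, when its probe sets were averaged, with the trended robust prior, and without SUP-B8 DMSO replicate 1 (0.50).

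Between the lines under DMSO, 2 of these 6 were higher and 2 lower in SUP-B8, where 37.8% of all genes were called higher and 30.6% lower. GALNT14 was higher in SUP-B8 by 3.24 ± 0.08 (limma adjusted p = 3.86e-09), GALNT10 by 1.23 ± 0.06 (limma adjusted p = 2.36e-07, 0.78 as the mean of its probe sets), and GALNT6 was lower at -0.92 ± 0.08 (limma adjusted p = 1.22e-05). GALNT18 was also lower, from a SUP-B8 level below the array medians, with -0.42 as the nearest bound of the difference (limma adjusted p = 8.48e-05). GALNT14 was called with GSK126 in neither line.

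All 11 further mannosidase genes and relatives were tested. In NALM-6 5 of them rose and 1 fell, where 20.8% of all genes were called higher and 18.5% lower. In SUP-B8 0 were called by limma (2 at an unadjusted p under 0.05), where 2.25% of all genes were called. EDEM1 came nearest there (-0.26 ± 0.06, limma adjusted p = 0.0603). The NALM-6 rises were those of MANEA, a Golgi endomannosidase that offers a bypass for glucosylated glycans (0.69 ± 0.06, limma adjusted p = 7.24e-05), of EDEM1, EDEM2 and EDEM3, which trim mannose on misfolded proteins bound for degradation (0.20 ± 0.06, 0.67 ± 0.06 and 0.64 ± 0.05, limma adjusted p of 0.0231, 8.97e-05 and 4.78e-05), and of the cytosolic MAN2C1 (0.29 ± 0.06). The EDEM1 call ended on leaving out any 1 NALM-6 array and with each array centred (0.16). MANBA, the lysosomal beta-mannosidase, fell in NALM-6 at -0.62 ± 0.06 (limma adjusted p = 0.000168). MAN1B1, which trims the first mannose in the early secretory pathway, was not called (0.09). Between the lines under DMSO, 7 of the 11 were higher and 3 lower in SUP-B8, where 37.8% of all genes were called higher and 30.6% lower. Among them were MANEAL at 1.03 ± 0.05 (0.49 as the mean of its probe sets) and EDEM1 at -1.24 ± 0.06.

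**Figure D4:**
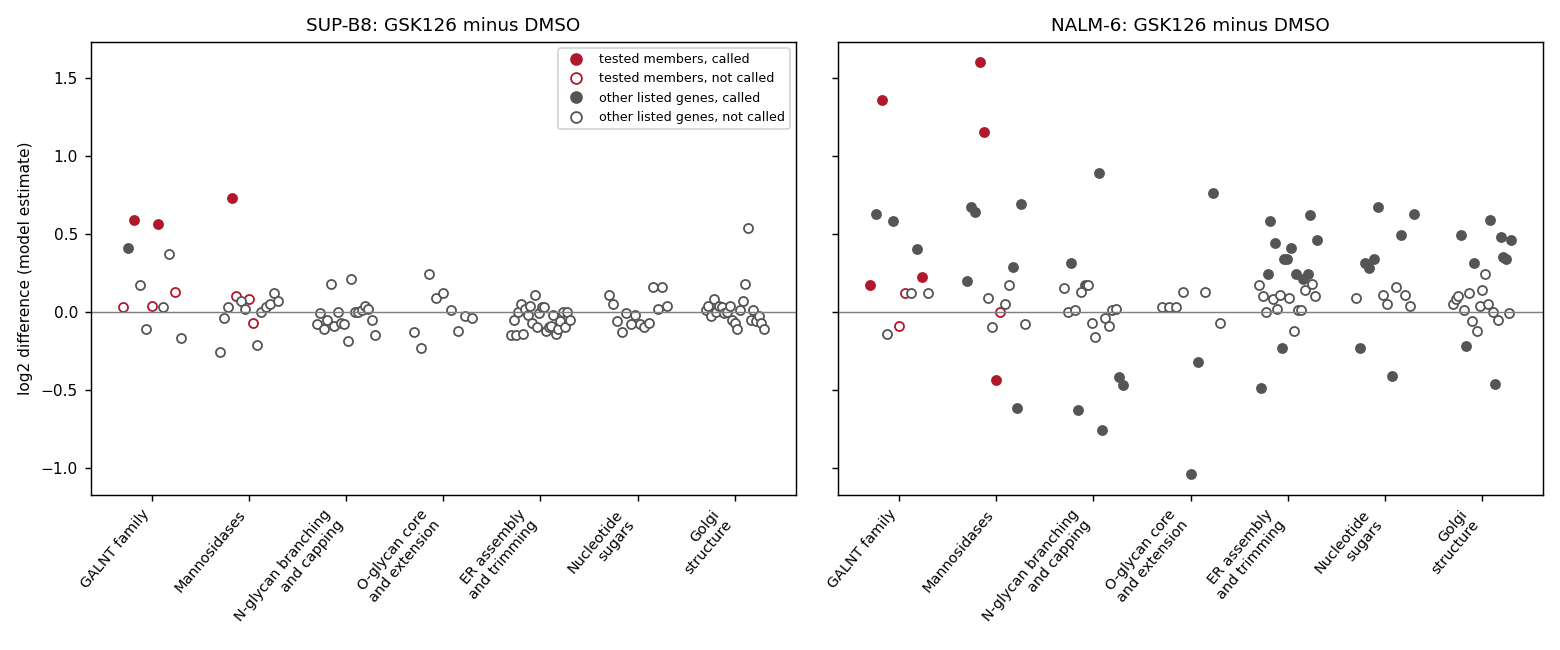
GSK126 minus DMSO (log2, model estimate) for every tested gene of 7 lists, in SUP-B8 on the left and NALM-6 on the right. Filled points were called, red points are the 9 tested members, and differences against a DMSO level below the array medians are drawn at their fitted values. In SUP-B8 the called genes are MAN1A1, GALNT12, GALNT3 and GALNT10. In NALM-6 called genes of both directions stand in each list except the GALNT family, on the probe sets that represent the genes. There 6 of 11 rose and 0 fell, but the 11 include members chosen with such values known, so nothing is read from this count. Without the members 3 of 6 rose and 0 fell. As the mean of its probe sets GALNT2 was called lower (-0.25). Over all genes 20.8% were called higher and 18.5% lower in NALM-6.

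Enzymes that branch, extend and cap the chains showed changes of both directions in NALM-6, where 20.8% of all genes were called higher and 18.5% lower. Of 18 tested genes of N-glycan branching and capping, 3 rose and 4 fell, with a median of 0.00. MGAT4B, which adds a branch to complex chains, fell at -0.76 ± 0.05 (limma adjusted p = 1.71e-05). Its relative MGAT4A was called higher, from a DMSO level below the array medians, and its rise is shown only as at least 0.05. B4GALT5, a galactosyltransferase, fell at -0.63 ± 0.06 (limma adjusted p = 0.000118). Of 9 tested genes of O-glycan extension, 1 rose and 2 fell. GCNT1, the enzyme of the core 2 branch, had the largest fall of the list at -1.04 ± 0.07 (limma adjusted p = 1.50e-05), with means of 7.52 ± 0.08 with GSK126 and 8.56 ± 0.02 with DMSO. The sialyltransferase ST6GALNAC4 rose by 0.76 ± 0.05 (limma adjusted p = 1.90e-05), and ST3GAL1 was called lower (-0.32 ± 0.09), which ended without NALM-6 DMSO replicate 2 (-0.28) or GSK126 replicate 1 (-0.19).

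Among genes that act before the members, supply them or build the Golgi, more were called higher than lower in NALM-6, where 20.8% of all genes were called higher and 18.5% lower, and 33 of the 63 were not called. In the endoplasmic reticulum list 11 of 26 rose and 2 fell (median 0.16), among them RPN2, a subunit of the oligosaccharyltransferase (0.62 ± 0.06), and the mannosyltransferase ALG2 (0.58 ± 0.07, 0.34 as the mean of its probe sets). Of 14 genes of nucleotide sugar supply, 6 rose and 2 fell (median 0.13). They included the sialic acid synthase NANS (0.67 ± 0.05, 0.25 as the mean of its probe sets) and UAP1, which makes UDP-linked amino sugars (0.63 ± 0.06), while the transporter SLC35A3 fell (-0.41 ± 0.08, and -0.20 without a call as the mean of its probe sets). Of 23 genes of Golgi structure, 7 were called higher and 2 lower (median 0.08), although GOLM1, 1 of the 2, lay below the array medians with both treatments. The higher ones included giantin, GOLGB1, at 0.59 ± 0.07 and the tethering subunit COG3 at 0.49 ± 0.06. The median over all genes tested was 0.02, and no list is called apart from the rest on these counts.

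In SUP-B8 the 5 lists beside the families had 0 called genes by limma, where 2.25% of all genes were called. At an unadjusted limma p under 0.05 were 2 of 18 genes for branching, 2 of 9 for O-glycan extension and 1 of 26 for endoplasmic reticulum. For nucleotide sugars it was 1 of 14, and for Golgi structure 2 of 23. The largest differences named by the rule were 0.54 ± 0.14 for GOLM1 of Golgi structure (limma adjusted p = 0.102), 0.24 for C1GALT1 and -0.23 for B3GNT6 of O-glycan extension, and 0.21 for MGAT4A and -0.19 for MGAT3 of branching. GOLM1 was called when arrays were centred (0.55), with the trended robust prior (0.54), with only the SUP-B8 arrays fitted (0.54) and without either NALM-6 array with GSK126.

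Between the lines under DMSO the same lists held large differences. B4GALT1, the main galactosyltransferase of N-glycans, was higher in SUP-B8 by 2.46 ± 0.07 and GNE, the first enzyme of sialic acid synthesis, by 2.06 ± 0.09 (limma adjusted p of 9.32e-09 and 1.42e-07). MGAT4A was higher by at least 2.59 (limma adjusted p = 2.91e-09). ST6GAL2, a sialyltransferase, was lower, with -2.32 as the nearest bound of the difference (limma adjusted p = 1.62e-09). GCNT1 was higher by 1.16 ± 0.07. The NALM-6 level of GNE with DMSO (7.95) lies within the range of the T-cell markers given above.

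Genes with the most similar profiles were sought for 2 members, over 8 arrays that share treatments and lines. For MAN1A1, the member with the largest NALM-6 response, the highest Pearson r after subtracting each line's mean were 0.9994 for SESN3, 0.9976 for WSB2 and 0.9976 for LGALSL. SESN3 differed by 0.60 in SUP-B8 and 1.29 in NALM-6, WSB2 by 0.17 and 0.44, and LGALSL by 0.25 and 0.59. For GALNT7, the member with the largest difference between the lines, the values without centring were 0.9995 for BEND5, 0.9993 for PAM and 0.9992 for AJUBA, which were higher in SUP-B8 under DMSO by 2.29, 4.43 and 3.09. These correlations are descriptions without a test, since the arrays fall into separate groups.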

How the data were processed

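RNA of 8 samples was measured on human Affymetrix expression arrays, 2 in each of 4 groups. The authors deposited log2 values for 54675 probe sets. The tools MAS5 and RMA are named per the submitters' processing notes, while their role and order are not given in the sources used here, and that the deposited values are log2 was read from their range, 3.15 to 15.11. The array medians lay close together, between 7.18 and 7.24. If the processing brought the arrays to a common level, any shift common to most genes is hidden. The number of arrays limits the precision, and no detection calls were used.

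Gene symbols came from the platform annotation, in which 41097 had 1 symbol, 1801 several and 11777 were not listed. Each of 19775 genes was represented by its brightest probe set over the 8 arrays, and 13161 genes passed the filter on dim probe sets. The fit used limma (version 3.58.1, R version 4.3.3), with 1 mean per group, 4 residual degrees of freedom and moderated variances. Adjustment by Benjamini and Hochberg ran over all genes tested, with calls under 0.05. The procedure was run on simulated data in which few genes were changed, in 1 group, and the groups were otherwise alike. Since that setting differs from these data, it does not show how reliable the calls are here. Python version 3.11.15 prepared the tables. An exact two-sided permutation test of 2 arrays against 2 has 0.333 as its smallest p. That the replicates are separate cultures is taken from the labels alone.

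The members, lists and tests were chosen with earlier results of these data known, and so was the treatment of a group whose arrays all lie below their medians as lacking proof of signal. For such a group the other group's height above those medians is the lower limit of the difference, and a fitted value printed beside it, or for an interaction that includes it, is no measured size. The rule for named genes covers the 10 members, any tested gene of both families, from each other list up to 4 called genes of largest size per comparison (or 2 where 0 were called), and, for 2 members, the 3 most similar genes.

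Alternatives covered the filter, the choice of probe set, quantile normalization, centring, the variance prior, the arrays fitted, a replicate block and the omission of each array. Replicate arrays correlated at 0.9977 to 0.9982, and 0 pairs of arrays were identical. Promoter windows are RefSeq's for GRCh38.p14. No genome build is named for the arrays, so no other coordinates are given.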

Additional observations from a re-analysis of the deposited data

Results flagged for a closer look

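The responses to GSK126 differed between the lines, by the interaction term coded as the SUP-B8 response minus the NALM-6 response, for 5 of the 9 tested members. Over all genes 25.4% were called for this term. The members were chosen with differences between these groups known, so their calls are no independent evidence. The term was -0.87 for MAN1A1, -1.05 for MAN1A2, -0.77 for GALNT12, 0.52 for MAN2A1 and 0.44 for GALNT3. The DMSO levels of GALNT3 lay below the array medians in both lines, so that its fitted value is no measured size. MAN1A1 and GALNT12 rose in both lines. MAN1A2 (0.10) and MAN2A1 (0.08) were not called in SUP-B8, and GALNT3 (0.12) was not called in NALM-6.

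Among related genes outside the 10, the term by limma was -0.69 for GALNT18 (adjusted p = 0.013), -0.46 for EDEM1 (adjusted p = 0.00434), -0.70 for EDEM2 (adjusted p = 0.000941), -0.62 for EDEM3 (adjusted p = 0.000818) and -0.57 for MANEA (adjusted p = 0.00241). The GALNT18 value is likewise a fitted one, since that gene lay below the array medians in both SUP-B8 groups, and the mean of its probe sets gave -0.29. The term was -0.26 for MAN2B1 (adjusted p = 0.0217), a lysosomal mannosidase whose call ended in 5 of 8 omissions of an array and with each array centred. It was 0.66 for MANBA (adjusted p = 0.0015) and 1.16 for GCNT1 (adjusted p = 0.000122), both of which fell in NALM-6. For GALNT10, called higher in both lines, the term was -0.22 and was not called (limma adjusted p = 0.0877).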

How the results depend on the processing

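The count of members called stayed within 1.5 times its main value under every alternative except the omission of arrays in SUP-B8, where it ran from 1 to 3. Over the omissions it was 4 to 6 in NALM-6, 4 to 5 for the difference of responses and 7 to 8 between the lines. The count over all genes in SUP-B8, 296, was 160 without a filter on dim probe sets, 777 with a trended robust prior and 191 with only that line's arrays, and 27 to 217 over the omissions, with 27 reached without GSK126 replicate 1. When each probe set was tested, 10213 of 24848 were called in NALM-6, 6571 for the difference of responses and 17422 between the lines, since more features enter. Over the omissions the gene counts were 3749 to 5316, 2346 to 3026 and 8410 to 8866 in the same order. Deviations of same-numbered arrays from their group means correlated at -0.02 within NALM-6 and -0.04 within SUP-B8. Between the lines the correlation was 0.13 for the DMSO groups and 0.04 for the GSK126 groups. It was -0.20 for NALM-6 DMSO with SUP-B8 GSK126 and -0.11 for NALM-6 GSK126 with SUP-B8 DMSO. The numbers were not taken as pairs. With the replicate number as a block, 202 genes were called in SUP-B8, 4972 in NALM-6, 3058 for the difference and 8848 between the lines, and 3, 6, 5 and 7 members, and each of the 36 member values kept its sign and its side of the threshold in this block.

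Of the members' 275 values under alternatives other than omissions, 263 kept their side of the threshold, 6 lost and 6 gained a call. Of 288 values with an array left out, 16 lost and 1 gained a call. No called value of a member changed sign in these alternatives, and 7 values that were never called did, all of size 0.10 or less. GALNT1 in NALM-6 also lost its call without a filter and with only that line's arrays, and GALNT3 lost that of its interaction without a filter. As the mean of its probe sets GALNT1 gained a call for the difference (-0.24), as did GALNT2 (0.30). GALNT3 has no value as a mean of probe sets because that mean was too dim. The causes of these changes were not tested. Levels near the array medians, as for GALNT3 and GALNT12 in SUP-B8, limit what a difference there can show.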
